A study of Mus musculus with 10 samples.

Results

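The genes that import choline and build phosphatidylcholine from it were examined in hypertrophied hepatic stellate cells (hypHSCs) and quiescent hepatic stellate cells (qHSCs) of mouse liver. The set held 10 genes, chosen by gene symbol for their role in the pathway, out of 25233 entries with a symbol and 62322 entries in all. They comprised the choline transporters Slc44a1 and Slc44a2, the choline kinases Chka and Chkb, the cytidylyl transferases Pcyt1a, Pcyt1b and Pcyt2, the phosphotransferases Cept1 and Chpt1, and the methyltransferase Pemt. They were of interest because the diet given to the hypHSC mice lacks choline.

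RNA was sequenced from 10 libraries, 5 per group, all from C57BL/6J mice per the labels, which name no transgene or deletion. hypHSCs came from mice fed CDAHFD, a high-fat diet with defined amino acids and no choline, for 13 weeks in replicates 1 and 2 (19 weeks old) and for 12 weeks in replicates 3 to 5 (18 weeks old). qHSCs came from mice on standard diet, 36 weeks old in replicates 1, 2 and 5 and 34 weeks old in replicates 3 and 4. Per the study's methods CDAHFD is also restricted in methionine and holds less vitamin A than the standard diet. Both kinds of cell were obtained by enzymatic dissociation, a density gradient and sorting on the cells' own fluorescence, with stronger digestion of the CDAHFD livers and a gate of its own for hypHSCs, and preparations were picked for RNA quality. Antibiotics were added to buffers for the CDAHFD livers. Diet (choline, methionine, fat and vitamin A), age, digestion, antibiotics and gate therefore differed together between the groups and cannot be told apart. The study picked the hypHSC preparations from more samples than mice, so some libraries may share a mouse. The mouse behind each library was not given, so the p-values measure the spread between preparations.

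Phosphatidylcholine is the main phospholipid of mammalian membranes and of the surface of lipid droplets and lipoproteins. In the Kennedy pathway choline enters the cell through transporters, is phosphorylated by a choline kinase, is activated to CDP-choline by a cytidylyl transferase, which is the step that usually sets the rate, and is joined to diacylglycerol by a phosphotransferase. Hepatocytes can also make phosphatidylcholine by methylating phosphatidylethanolamine with Pemt, and a lack of choline leads to fat storage in the liver.

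Values are normalized counts, that is, read counts per gene divided by a size factor for each library. Library depth was similar, with 30534719 to 43283589 reads falling on named genes in each hypHSC library and 35640104 to 47317028 in those of qHSC, while mitochondrial genes took 2.21% to 12.8% and 1.25% to 1.61% of the reads. All 10 stellate cell markers examined, among them Lrat, Des and Reln, were lower in hypHSCs, with summed levels of 30694 to 60077 against 1342005 to 2216143 normalized counts. All 10 macrophage markers, among them Adgre1, Lyz2 and C1qa, were higher, with sums of 840598 to 1281704 against 5524 to 93593. Lyz2 made up most of the hypHSC sum, with 740305 to 940344 normalized counts. The groups did not overlap for 6 of these 10 markers, against 39.5% of all genes tested, but did for others, Adgre1 and C1qa among them. None of these 20 markers was at 0 in all libraries of a group. In each hypHSC library the macrophage sum exceeded the stellate sum, both being counts not divided by gene length. At the level of RNA this goes against the label of stellate cells, so hypHSC is used here as the name of the group. The study reports desmin, cRBP1 and alpha smooth muscle actin protein in sorted hypHSCs, and also more CD68 labeling than in qHSCs. It gives high purity of the sorted cells by droplet fluorescence, with opaque cells, which it proposes are dead, still in the gate. Before sorting it saw no labeling for a macrophage surface marker on cells with fluorescent droplets. All 4 tested markers of bile duct cells were also higher (sums of 530 to 3029 against 6.29 to 58.8), 3 of 7 tested endothelial markers were lower and 1 higher (411 to 877 against 1114 to 2512), and 0 of 10 hepatocyte markers passed the test (9315 to 109298 against 19468 to 69949). Of all genes tested, 48% passed, 22.2% as higher and 25.8% as lower, so the endothelial calls were near the share of all genes. In such bulk libraries fewer cells of a type and less RNA per cell cannot be told apart. The part of these marker differences in the results below was not tested.

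The results turned on Chka and Pcyt1a, the 2 genes called higher in hypHSCs, so the bases before their start sites are shown, with Chkb beside Chka because this paralog of the same step was not called. The sequences are from RefSeq, whose start sites gave 9 of the 10 genes a promoter entry, and they were placed on GRCm39 by an exact and single match. Capitals mark matches on either strand to the CCAAT box (CCAAT), the GC box (GGGCGG) or the sterol regulatory element as known from the promoter of the low-density lipoprotein receptor (TCACCCCAC). These letters were chosen after the promoters had been read.
Chka, chr19:3901523-3901772, plus strand: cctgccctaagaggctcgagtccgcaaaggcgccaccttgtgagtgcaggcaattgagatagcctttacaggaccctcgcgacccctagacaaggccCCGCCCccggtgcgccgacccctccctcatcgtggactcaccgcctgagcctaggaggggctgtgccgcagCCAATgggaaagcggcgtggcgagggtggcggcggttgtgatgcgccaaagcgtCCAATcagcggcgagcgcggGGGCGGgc
Chkb, chr15:89314131-89314380, minus strand: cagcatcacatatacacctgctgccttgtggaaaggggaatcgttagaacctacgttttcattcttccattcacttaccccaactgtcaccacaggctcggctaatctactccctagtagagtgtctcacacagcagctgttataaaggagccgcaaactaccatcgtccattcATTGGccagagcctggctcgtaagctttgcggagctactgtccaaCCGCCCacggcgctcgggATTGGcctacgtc
Pcyt1a, chr16:32249612-32249641, plus strand: cttcggctcagTCACCCCACgcgcccggcc

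The Chka window of 250 bases held 2 CCAAT matches, beginning 82 and 28 bases before the RefSeq start, and 2 GC boxes, at 153 and 8 bases. The Chkb window also held 2 CCAAT matches, both on the opposite strand (written ATTGG) at 76 and 13 bases, and 1 GC box at 31 bases. Of 27025 mouse promoters of the same length, 34.5% held CCAAT and 32.9% held GGGCGG, so these letters are common. Pcyt1a is shown only by the 30 bases around its match to TCACCCCAC, which began 116 bases before its start. That motif was found in 0.466% of promoters, and the rest of the Pcyt1a window held 2 overlapping GC boxes and no CCAAT. All motifs were searched in the windows of 9 members, as was the E-box (CACGTG), which matched in none. Members not called held matches too, such as 5 GC boxes and 1 CCAAT for Chpt1 and 3 GC boxes for Slc44a1. The GENCODE annotation has longer transcripts, so that 30 bases of the Chka window, 9 of the Chkb window and all 250 of the Pcyt1a window lay in exons of the gene itself. A match of letters is a description of the window and does not show that a factor binds there.

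Of the 10 genes, 9 reached at least 10 normalized counts in at least 5 libraries and were tested. Chka and Pcyt1a were higher in hypHSCs at an adjusted p of at most 0.05 (limma with Benjamini-Hochberg adjustment over 14630 genes), 0 were lower and 7 did not pass. Over all genes tested, 48% passed in either direction, 22.2% higher and 25.8% lower, so the 2 of 9 members higher were close to the share of all genes. Both called members also changed by at least 1 on the log2 scale, and 39.5% of all genes tested both passed and changed by as much. Slc44a2 and Chpt1 changed by as much without passing (-1.06 for each), and the median absolute log2 fold change of all genes was 1.02. The groups did not overlap in 2 members, Chka and Chpt1, against 39.5% of all genes tested. The median log2 fold change was -0.07 over the 9 members and -0.20 over all genes. Scaling moved these values as a whole: with every library at the same total the median of all genes was -0.55 and 2437 genes were higher and 5106 lower, and with 3 of the reference genes of the study's qPCR (Hprt, Pgk1 and Actb, without 18S) it was -1.13 with 1566 higher and 7705 lower, against 3242 higher and 3777 lower as tested. A scaling shifts all genes by nearly the same amount, so a gene's distance from the median of all genes hardly depends on it. Under the 5 scalings tried this distance was 2.60 for Chka and 1.26 to 1.27 for Pcyt1a. It was as steady for Pemt, which was not called (-0.0002 to 0.0066), so it is no check of the calls.

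**Figure D1:**
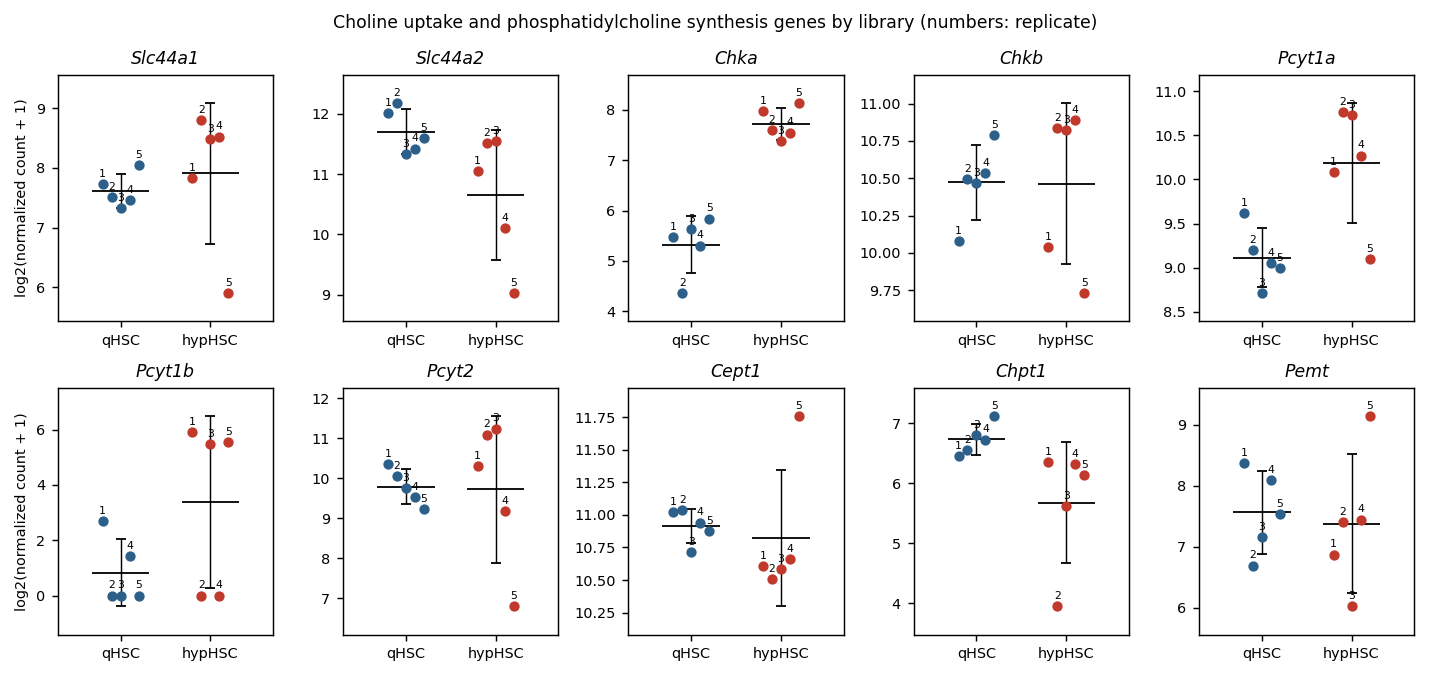
Level of each of the 10 genes in each library, as log2(normalized count + 1), with qHSC in blue and hypHSC in red, the replicate number beside each point, and the group mean and SD as lines. Chka is the gene whose points are far apart between the groups, and hypHSC replicate 5 lies apart from the other hypHSC libraries in several panels.

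Slc44a1 encodes a choline transporter of the plasma membrane and mitochondria (chr4:53440413-53622478). It stood at 226, 447, 358, 367 and 59.0 normalized counts in hypHSC replicates 1 to 5 and at 212, 182, 160, 175 and 263 in qHSC replicates 1 to 5. Replicates 2 to 4 of hypHSC lay above every qHSC library, replicate 1 lay among them and replicate 5 was the lowest of all 10. The log2 fold change was 0.30 (SE 0.50, 95% interval -0.80 to 1.39, adjusted p = 0.650 with limma), and without hypHSC replicate 5 it was 0.80 with an adjusted p of 0.0238. Its direction turned under 2 scalings, to -0.06 with the same total and -0.64 with the qPCR reference genes.

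Slc44a2 encodes another transporter of the same family (chr9:21232015-21266325). Its hypHSC libraries held 2125, 2919, 2986, 1094 and 520 normalized counts and qHSC libraries 4122, 4636, 2567, 2740 and 3095. The 3 highest qHSC libraries lay above all hypHSC libraries, and hypHSC replicates 2 and 3 lay above the other 2 qHSC libraries. This gave a log2 fold change of -1.06 (SE 0.45, 95% interval -2.04 to -0.08), which did not pass after adjustment (limma, adjusted p = 0.0705, exact two-sided permutation p = 0.0635). It did pass with the same total (-1.41, adjusted p = 0.0333) and with the qPCR reference genes (adjusted p = 0.000399). It also passed without hypHSC replicate 2 (-1.28, adjusted p = 0.0398), without hypHSC replicate 3 (-1.28, adjusted p = 0.0375) and with hypHSCs of 12 weeks only (-1.48, adjusted p = 0.0341), and without hypHSC replicate 5 it was -0.65.

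The 2 transporters differed in their balance. The log2 ratio of Slc44a1 to Slc44a2, which does not depend on the scaling of the libraries, ran from -3.22 to -1.57 among hypHSC libraries and from -4.66 to -3.55 among qHSC libraries. The groups did not overlap, and the mean difference was 1.35 (exact two-sided permutation p = 0.00794, the smallest the design allows, adjusted p = 0.0278 over 7 ratios). Without hypHSC replicate 4 the difference was 1.06 (exact permutation, adjusted p = 0.0556).

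Chka, a choline kinase, the enzyme of the first step after uptake (chr19:3901771-3944367), showed the largest log2 fold change of the 9 tested genes. hypHSC libraries held 251, 193, 165, 186 and 280 normalized counts, and qHSC libraries held 43.4, 19.6, 48.8, 38.5 and 56.2. The lowest hypHSC library was well above the highest qHSC library. hypHSC replicate 5, low for several other members, was the highest here. Scaled by the reads on named genes instead, hypHSC replicate 1 was the highest. The log2 fold change was 2.40 (SE 0.36, 95% interval 1.60 to 3.20, adjusted p = 0.000260 with limma), with an exact permutation p of 0.00794. It passed under all 23 alternatives, at 1.48 to 2.53. The counts behind it were modest, 23 to 198 reads per library.

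Chkb, the other choline kinase, which also phosphorylates ethanolamine, did not show this (chr15:89310554-89314135). It stood at 1050, 1829, 1808, 1899 and 849 normalized counts in hypHSCs and at 1081, 1439, 1414, 1481 and 1768 in qHSCs. The hypHSC libraries lay on both sides of the qHSC libraries, 3 above and 2 below all of them. This gave a log2 fold change of -0.01 (SE 0.26, 95% interval -0.57 to 0.56, adjusted p = 0.981 with limma), its sign changed with the scaling, and with the qPCR reference genes it passed as lower (-0.95, adjusted p = 0.00952). Chkb values are uncertain, since 55.9% of its exon bases are shared with other annotated genes, 48.5% with the readthrough gene Gm44502 on the same strand.

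The kinase ratio repeated the result for Chka, since the log2 fold change was 2.40 for Chka and -0.01 for Chkb. The log2 ratio of Chka to Chkb was -3.45 to -1.60 in hypHSCs and -6.13 to -4.61 in qHSCs, with a mean difference of 2.41 (exact two-sided permutation p = 0.00794, adjusted p = 0.0278 over 7 ratios). The 2 groups did not overlap, as for Chka alone. How often ratios between other genes separate the groups was not computed, here or for the transporters. Without hypHSC replicate 4 the difference was larger, at 2.56. Its adjusted p, which depends on all 7 ratios, was then 0.0556 (exact permutation).

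Pcyt1a encodes the main CTP:phosphocholine cytidylyl transferase (chr16:32249737-32293883). It was at 1085, 1733, 1701, 1233 and 546 normalized counts in hypHSCs and at 783, 586, 419, 529 and 510 in qHSCs. Replicates 1 to 4 of hypHSC lay above every qHSC library and replicate 5 lay among them. The log2 fold change was 1.07 (SE 0.32, 95% interval 0.38 to 1.77, adjusted p = 0.0155 with limma, exact permutation p = 0.0238). The call was lost with the same total (0.72, adjusted p = 0.113), with the qPCR reference genes (0.14, adjusted p = 0.690) and with the 3 hypHSC libraries of 12 weeks only (0.92, adjusted p = 0.0693), and without hypHSC replicate 5 the value was 1.35. Reads were counted without strand, and 10.6% of the Pcyt1a exon bases overlap Slc51a on the opposite strand, which averaged 318 normalized counts in hypHSCs and 116 in qHSCs.

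Pcyt1b, the second isoform gene of that step (chrX:92698468-92793554), was near the limit of detection. hypHSC libraries held 44, 0, 52, 0 and 30 reads, or 59.3, 0, 43.2, 0 and 45.4 normalized counts. qHSC libraries held 6, 0, 0, 2 and 0 reads. The 3 hypHSC libraries with reads were above every qHSC library, whereas the other 2 had none at a floor of 3 reads, or 2.25 to 4.54 normalized counts, which covers counting error only. Of its exon bases, 9.86% overlap Pdk3 on the opposite strand. Pcyt1b did not pass the filter, and in a fit without a filter the log2 fold change was 2.56 (SE 1.31, adjusted p = 0.150 with limma).

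Pcyt2 encodes the matching enzyme for phosphoethanolamine, the entry to phosphatidylethanolamine (chr11:120500888-120508771). Its hypHSC values were spread the most of the 9 tested genes, at 1257, 2177, 2409, 574 and 110 normalized counts, against 1308, 1059, 861, 739 and 599 in qHSCs. hypHSC replicates 2 and 3 lay above and replicates 4 and 5 below all qHSC libraries. This gave a log2 fold change of -0.07 (SE 0.72, 95% interval -1.65 to 1.52, adjusted p = 0.948 with limma) and 0.66 without hypHSC replicate 5, so neither direction nor absence of a change can be read from it.

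The log2 ratio of Pcyt1a to Pcyt2 averaged 0.47 in hypHSCs and -0.67 in qHSCs (difference 1.14, exact permutation p = 0.0476, adjusted p = 0.0833), and that of Chka to Pcyt1a, the first step over the second, averaged -2.46 and -3.79 (difference 1.33, exact permutation p = 0.0476, adjusted p = 0.0833). Neither passed over the 7 ratios, and the groups overlapped in both. Without hypHSC replicate 5 the difference in Pcyt1a to Pcyt2 was 0.68, and without hypHSC replicate 3 it was 1.38 and passed (exact permutation, adjusted p = 0.0370). The ratio of Pcyt1a to Pcyt1b rested on the libraries with no Pcyt1b read (difference -1.48, exact permutation p = 0.349, adjusted p = 0.349) and ranged from -2.47 to -0.67 when 1 library was left out.

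**Figure D2:**
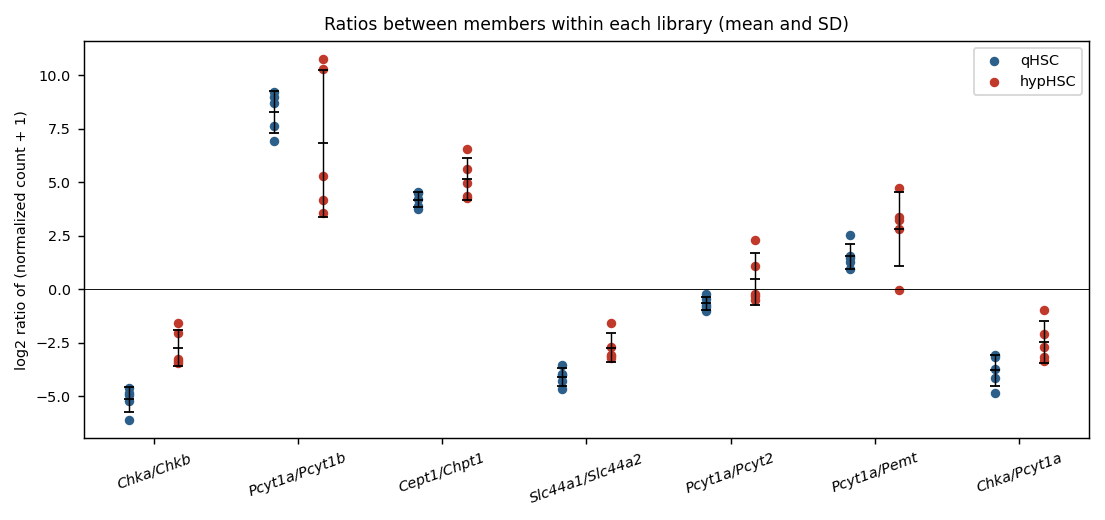
The log2 ratios between members, taken within each library as (normalized count + 1), for the 7 pairs compared, with qHSC in blue, hypHSC in red, and the mean and SD as black marks. The groups are apart for Chka over Chkb and for Slc44a1 over Slc44a2 and overlap for the other 5. The share of separated ratios among other gene pairs was not computed.

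Cept1 joins either CDP-choline or CDP-ethanolamine to diacylglycerol (chr3:106409576-106455118). It stood at 1558, 1456, 1533, 1620 and 3464 normalized counts in hypHSCs and at 2074, 2101, 1678, 1966 and 1880 in qHSCs. Replicates 1 to 4 of hypHSC lay below every qHSC library and replicate 5 was above them all. The log2 fold change was -0.09 (SE 0.24, 95% interval -0.61 to 0.43, adjusted p = 0.765 with limma). Without hypHSC replicate 5 it was -0.33 and passed with an adjusted p of 0.0445, and with the qPCR reference genes it was -1.03 (adjusted p = 0.0304), while with the upper quartile it was 0.03. Of its exon bases, 8.52% overlap Dram2 on the opposite strand, which averaged 2998 normalized counts in hypHSCs and 1467 in qHSCs.

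Chpt1, the phosphotransferase specific for choline (chr10:88308671-88339832), was read at low depth. It was at 80.9, 14.5, 48.2, 78.7 and 69.6 normalized counts in hypHSCs and at 86.9, 92.9, 111, 105 and 138 in qHSCs. All hypHSC libraries were below all qHSC libraries, although the nearest pair differed little. The exact two-sided permutation p was 0.00794, before adjustment, while the log2 fold change of -1.06 (SE 0.48, 95% interval -2.12 to 0.01) did not pass in the fit across all genes (limma, adjusted p = 0.0933). Without hypHSC replicate 2, the lowest library, it was -0.62 (limma, adjusted p = 0.155). It passed as lower with the same total (-1.41, adjusted p = 0.0275) and with the qPCR reference genes (-1.97, adjusted p = 0.00782). The ratio of Cept1 to Chpt1 differed by 0.96 on the log2 scale (exact permutation p = 0.0635, adjusted p = 0.0889) and by 0.61 without hypHSC replicate 2.

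Pemt, the methyltransferase of the route known from hepatocytes (chr11:59861441-59937315), held 116, 168, 64.0, 173 and 561 normalized counts in hypHSCs and 329, 102, 142, 270 and 184 in qHSCs. The highest library was hypHSC replicate 5 and the lowest hypHSC replicate 3, with all qHSC libraries between them. This gave a log2 fold change of -0.19 (SE 0.54, 95% interval -1.39 to 1.003, adjusted p = 0.790 with limma). The ratio of Pcyt1a to Pemt, the Kennedy over the methylation route, differed by 1.27 (exact permutation p = 0.159, adjusted p = 0.185) and the groups overlapped. Without hypHSC replicate 5 it was 1.98 and passed (exact permutation, adjusted p = 0.0370), and without hypHSC replicate 3 it was 0.79.

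Pemt followed the hepatocyte markers from library to library. The summed hepatocyte markers were highest in hypHSC replicate 5 (109298 normalized counts), then in qHSC replicates 1 (69949) and 4 (60102), and lowest in hypHSC replicate 3 (9315), and these 4 libraries held the same ranks for Pemt. Per 1000 hepatocyte marker counts there were 3.43 to 6.87 counts of Pemt in hypHSCs and 3.91 to 5.25 in qHSCs. The 3 genes with the profile nearest to Pemt over the 10 libraries, by root mean square difference of centred log2 values, were Mup5 (0.29), Sec14l2 (0.30) and Tdo2 (0.38), where the median gene was at 1.30. Mup5 encodes a major urinary protein and Tdo2 the tryptophan dioxygenase of hepatocytes.

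The nearest profiles to Pcyt1a were Cat, encoding catalase (0.20), Lamtor1, a lysosomal scaffold protein (0.20), and Nsf, a vesicle fusion ATPase (0.22), with the median gene at 1.14. For Slc44a1 they were Slc36a4 (0.23), Prmt7, a protein arginine methyltransferase (0.23), and Necap2, an endocytosis protein (0.26), with the median gene at 1.17. Such likeness is a description over 10 libraries in 2 groups.

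**Figure D3:**
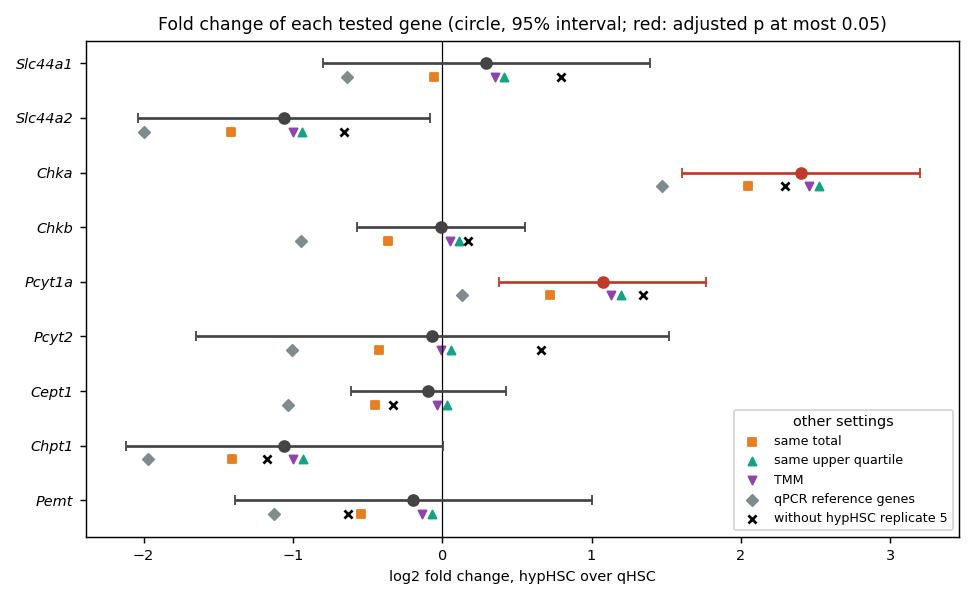
Log2 fold change of hypHSC over qHSC for the 9 tested genes, as circles with 95% intervals (red where the adjusted p was at most 0.05), with the value under 4 other scalings and without hypHSC replicate 5 as the markers under each circle. Only the Chka values all lie far to the right of 0, from 1.48 upward, and the qPCR reference genes shift every gene to the left.

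hypHSC libraries varied more among themselves than qHSC libraries. The SD on the log2 scale was larger in hypHSCs for 9 of the 10 genes, the exception being Chka (0.32 against 0.57), and the median SD over all genes was 0.73 in hypHSCs and 0.34 in qHSCs. hypHSC replicate 5 lay below all qHSC libraries for 5 of the 10 genes (Slc44a1, Slc44a2, Chkb, Pcyt2 and Chpt1) and above all of them for 4 (Chka, Pcyt1b, Cept1 and Pemt). The share of all genes for which this library lay outside the qHSC range was not computed. Of the 10 libraries it had the lowest size factor (0.661) and the fewest named genes with a read (14028, against 14949 to 16634 in the other hypHSC libraries). Within hypHSCs, Chka averaged 222 normalized counts in the 2 libraries of 13 weeks and 210 in the 3 of 12 weeks, and Pcyt1a 1409 and 1160, and the libraries of the 2 durations overlapped for both genes. Within qHSCs, Chka averaged 39.7 at 36 weeks of age and 43.7 at 34 weeks.

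Levels can be compared between genes only per length, so FPKM values, which divide the reads by exon length and library depth, were computed. The length joined all exons annotated for a gene, used or not, so the order between genes depends on the annotation. The study's own qHSC values, with other gene models, were lower than those computed here for Lrat and higher for Des and Dcn. Chkb was highest in both groups, at 11.3 ± 4.32 FPKM in hypHSCs and 13.6 ± 1.92 in qHSCs (SD, n = 5), with the overlap of its exons as a limit. In qHSCs the order went on with Slc44a2 at 10.4 ± 2.698, Pcyt2 at 5.84 ± 1.88, Cept1 at 4.95 ± 0.432, Pcyt1a at 1.98 ± 0.487 and Pemt at 1.66 ± 0.764. The low end was Slc44a1 at 0.469 ± 0.0739, Chpt1 at 0.359 ± 0.0563, Chka at 0.0997 ± 0.0324 and Pcyt1b at 0.00801 ± 0.0132. Neighbours in this order were apart in all libraries, with no overlap, for Cept1 over Pcyt1a, Pemt over Slc44a1, Chpt1 over Chka and Chka over Pcyt1b, and overlapped elsewhere.

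In hypHSCs the order was Chkb, Pcyt2 (6.91 ± 5.63 FPKM), Slc44a2 (4.78 ± 3.02), Cept1 (3.76 ± 1.31), Pcyt1a (3.56 ± 1.64), Pemt (1.28 ± 1.04), Slc44a1 (0.559 ± 0.305), Chka (0.402 ± 0.0671), Chpt1 (0.152 ± 0.0685) and Pcyt1b (0.130 ± 0.123). Chka had changed places with Chpt1, and this pair was the only pair of neighbours that did not overlap. Even at its hypHSC level Chka was below Chkb per length in every library.

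**Figure D4:**
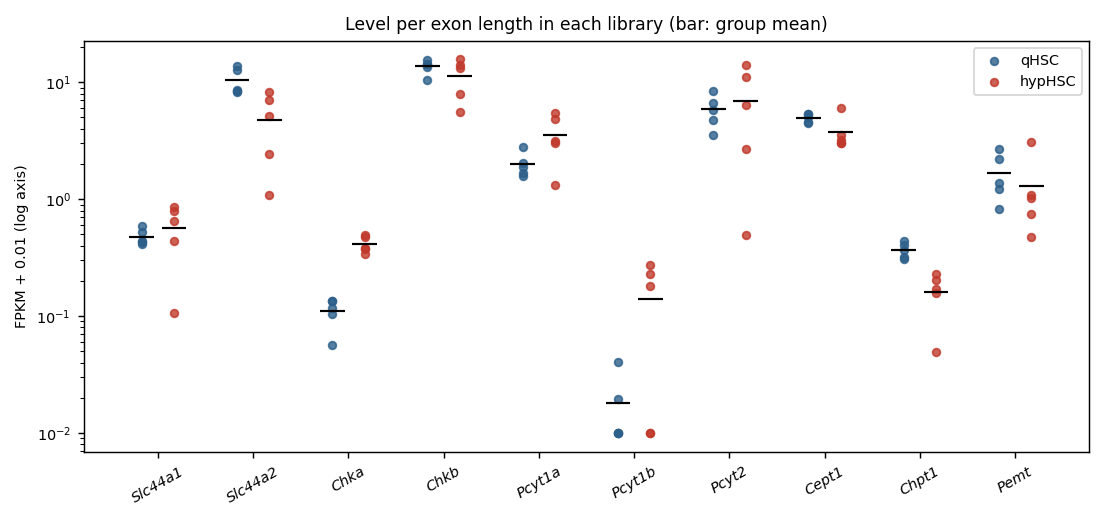
FPKM (plus 0.01, log axis) of the 10 genes in each library, with qHSC in blue, hypHSC in red and the group mean as a bar. Chkb is highest in both groups, Chka lies under Chpt1 in qHSCs and over it in hypHSCs, and Pcyt1b is lowest in qHSCs.

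Of 65 other genes of choline, ethanolamine, sphingomyelin and methyl metabolism in 6 lists, 58 were tested, 13 were higher and 10 lower in hypHSCs (limma), which is 39.7% of them against 48% of all genes. The median log2 fold change was -0.30, near the -0.20 of all genes. The groups did not overlap in 18 of the 58, against 39.5% of all genes tested. The genes given with values from these lists passed the test and were picked for the largest changes. Separation of their groups follows in part from that choice.

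In choline and phospholipid transport, 1 of 7 tested genes was higher and 0 lower. Flvcr1, a choline transporter of the plasma membrane also known for heme export, held 858 to 1581 normalized counts in hypHSCs and 123 to 175 in qHSCs (log2 fold change 2.91, SE 0.23, adjusted p = 2.84e-06). Its groups were far apart. The other 6 tested transporters did not pass.

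Among 7 tested genes of ethanolamine and serine phospholipids, 1 was higher and 1 lower. Phospho1, a phosphatase that acts on phosphocholine and phosphoethanolamine, rose from 0 to 12 reads per qHSC library to 42 to 114 reads in hypHSCs (5.16, SE 0.76, a size that depends on the value added before the logarithm). Etnk1, an ethanolamine kinase, fell from 59.8 to 116 normalized counts in qHSCs to 9.07 to 21.7 (-2.39, SE 0.42). Of the 8 tested genes of acyl remodelling and diacylglycerol supply, 3 were higher and 1 lower. Lpcat2 and Lpcat1, which put an acyl chain back on lysophosphatidylcholine, rose by 3.65 (SE 0.62, 435 to 1380 against 20.45 to 234 normalized counts) and 0.90 (SE 0.34, groups overlapping) on the log2 scale, and Mboat2, another such acyltransferase, fell by 4.20 (SE 0.93), with 0 to 25.6 against 18.8 to 95.9 normalized counts.

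Choline release from phosphatidylcholine and glycerophosphocholine had 4 higher and 1 lower of 12 tested genes. Pnpla7, a lysophospholipase, held 898 to 2717 normalized counts in hypHSCs and 151 to 396 in qHSCs (2.72, SE 0.35, adjusted p = 8.19e-05), and Gde1, a glycerophosphodiester phosphodiesterase, held 881 to 2143 and 170 to 253 (2.695, SE 0.28, adjusted p = 1.71e-05). Both were apart in every library, as genes picked for their large changes. Enpp2, or autotaxin, which cleaves choline from lysophosphatidylcholine outside the cell, fell by 2.91 (SE 0.46), from 228 to 585 normalized counts in qHSCs to 28.0 to 132.

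Sphingomyelin metabolism had 3 higher and 2 lower of 9 tested genes. Smpd3, a neutral sphingomyelinase, was at 64 to 127 reads in hypHSCs and 0 to 15 in qHSCs (4.92, SE 0.72), and Samd8, a relative of the sphingomyelin synthases, rose by 1.89 (SE 0.34). Smpd1, the acid sphingomyelinase of the lysosome, fell by 1.62 (SE 0.42) and Smpd2 fell by 1.03 (SE 0.28). The groups did not overlap in any of these 4, which were picked for their large changes.

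Choline oxidation and the methyl cycle had 1 higher and 5 lower of 15 tested genes. Chdh, the choline dehydrogenase of mitochondria, held 68.3 to 291 normalized counts in hypHSCs and 17.1 to 39.8 in qHSCs (2.34, SE 0.49, adjusted p = 0.00233). Sardh, the sarcosine dehydrogenase, fell by 1.89 (SE 0.57, adjusted p = 0.0182), and Cth, the cystathionine gamma-lyase, fell by 1.73 (SE 0.56, adjusted p = 0.0236). The remaining 9 did not pass, among them the methyltransferase gene Bhmt. These counts moved with scaling, to 16 lower of all lists with the same total and 29 lower and 7 higher with the qPCR reference genes, against 10 lower and 13 higher.

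**Figure D5:**
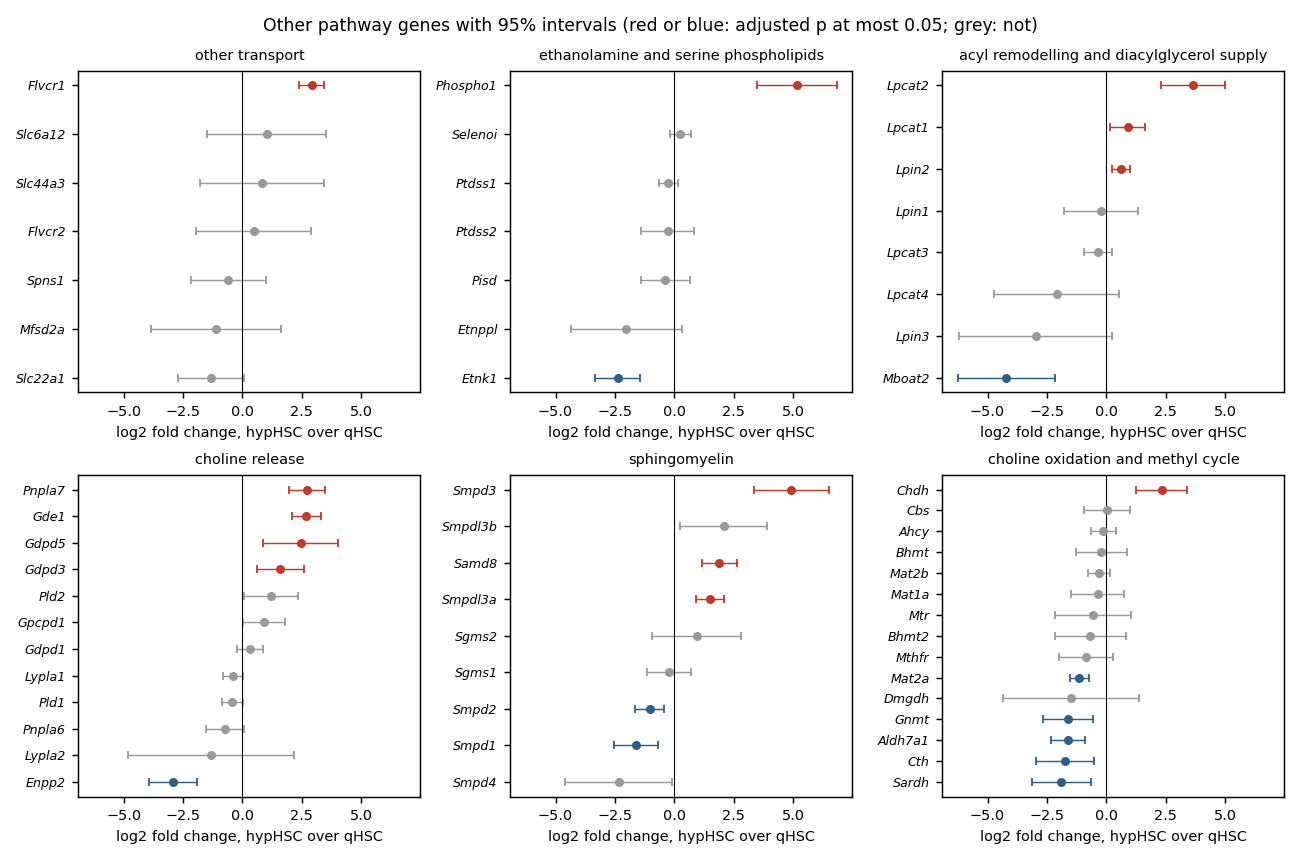
Log2 fold change of hypHSC over qHSC with 95% intervals for the 58 tested genes of the 6 other pathway lists, red where higher and blue where lower at an adjusted p of at most 0.05, and grey otherwise. Flvcr1, Phospho1, Lpcat2, Pnpla7, Smpd3 and Chdh lead their panels, and Mboat2 and Enpp2 are the lowest in theirs.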

How the data were processed

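The deposited table holds a signal for every gene: per the labels and the study's methods, the authors mapped paired reads (59 bases, from oligo-dT, non-stranded low-input libraries) to mm39 with STAR, counted them per gene with featureCounts (Subread 1.5.0) against FAST DB gene models, and divided the counts by DESeq2 size factors. All 10 columns were mapped to samples. Whole reads were recovered for 100% of values (within 0.1 read), and size factors recomputed from them equalled the deposited ones. They gave the depth, FPKM (exon lengths from GENCODE vM39) and the DESeq2 and edgeR alternatives.

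Named genes were kept if 5 or more of the 10 libraries reached 10 normalized counts. They were compared as log2(normalized count + 1) by limma 3.58.1 under R 4.3.3, using lmFit and a trended eBayes. P-values were adjusted by Benjamini-Hochberg across every tested gene, and 0.05 was the threshold. Fold changes are on this scale, which understates changes of low genes. Single members and 7 ratios were compared with exact two-sided permutation tests of 5 against 5 libraries (smallest p 0.00794). No 2 libraries of a group agreed within sampling noise. The 37089 entries without a symbol held 8.98% to 29.1% of reads and were left out except in one alternative.

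The members and gene lists were chosen with earlier results of these data known, so their direction is not independent evidence. All members were named, and of each other list the 2 largest rises and 2 largest falls among called genes averaging 10 or more normalized counts, plus the 3 nearest profiles of Slc44a1, Pcyt1a and Pemt. DESeq2 1.42.0, edgeR 4.0.16, other scalings, pseudocounts and filters, and leaving out libraries were alternatives. Pcyt2 had no promoter entry.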

Additional observations from a re-analysis of the deposited data

Results flagged for a closer look

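Cept1 in hypHSC replicate 5 was far from the other hypHSC libraries. Its level there was 3464 normalized counts, against 1456 to 1620 in replicates 1 to 4, and the gap to the nearest library took up 0.8767 of the range of the group on the log2 scale, above the critical value of 0.71 for 5 samples. It was the only such case among 34 groups of 5 values examined, where chance marks about 1 in 20.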

How the results depend on the processing

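Chka was called higher under all 23 alternatives and Pcyt1a under 20. Members called higher numbered 2 as reported, 1 with the same total, with the qPCR reference genes (the geometric mean of Hprt, Pgk1 and Actb, without 18S) and with hypHSCs of 12 weeks only, and 2 to 3 when 1 library was left out. Members called lower numbered 0 as reported, 2 with the same total, 4 with the qPCR reference genes, 1 with hypHSCs of 12 weeks only, and 0 to 1 when 1 library was left out: Slc44a2 without hypHSC replicate 2 or 3 and Cept1 without replicate 5. Other pathway genes higher fell from 13 to 8 when genes had to average 100 normalized counts and to 7 with the qPCR reference genes, and those lower went from 10 to 16 with the same total and to 29 with the qPCR reference genes. Shared replicate numbers did not pair the libraries (correlations of 0.01 to 0.13 between same-numbered libraries, and 1 of 5 matched its own number best), and with the replicate block 1 member, Slc44a2, was lower. Both ratios that passed lost their call with the block (adjusted p = 0.1458, where exact sign flips of 5 pairs allow no p under 0.0625) and with hypHSCs of 12 weeks only (adjusted p = 0.0625, set by the smallest exact permutation p that 3 against 5 libraries allow, with differences of 2.35 and 1.51). Signs turned only for members that were not called as reported: Slc44a1 to -0.0577 with the same total and -0.6404 with the qPCR reference genes, Chkb to 0.1148 with the upper quartile, 0.0499 with TMM, 0.0503 with DESeq2, 0.1116 with edgeR and 0.0091 with hypHSCs of 12 weeks only, Pcyt2 to 0.057 with the upper quartile, 0.5159 with DESeq2 and 0.5602 with edgeR, Cept1 to 0.029 with the upper quartile, 0.0625 with edgeR and 0.0835 with hypHSCs of 12 weeks only, and Pemt to 0.0712 with DESeq2 and 0.1444 with edgeR. Leaving out 1 library gave -0.1153 to 0.175 for Chkb, -0.445 to 0.6638 for Pcyt2 and -0.6331 to 0.1448 for Pemt. The cause was not tested. Depth limits Pcyt1b, Chpt1 and Chka most.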
